A study of Mus musculus with 6 samples.

Results

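The collagen genes of the mouse left ventricle were described across its cell types. A gene counted as a collagen when its symbol was Col, a number, the letter a and a number with nothing after it. This rule, which reads symbols alone, found 44 of the 33696 genes in the files. They fell into 8 structural types: 11 fibrillar, 6 basement membrane, 6 beaded filament, 3 network-forming, 9 fibril-associated, 4 transmembrane and 2 multiplexin collagens, and 3 others (Col7a1, Col26a1 and Col28a1). Single-nucleus RNA sequencing of fresh frozen left ventricle had been run on 6 libraries, 2 per group, from male mice aged 12 weeks. WT-CD were wild-type littermates on control diet, R403Q-CD were heterozygous Myh6+/R404Q (R403Q) mice on the same diet, and R403Q-EMPA were R403Q mice given empagliflozin (EMPA), an inhibitor of the sodium-glucose cotransporter SGLT2, at 0.15 mg per g of that diet, equal to about 15 mg/kg. The R403Q change in the cardiac myosin heavy chain causes hypertrophic cardiomyopathy, and it is carried in every cell of these mice although the gene is used mainly by cardiomyocytes. Diets were begun at 9 to 10 weeks of age, and the study asked how EMPA acts on this model. The labels do not say whether the 2 libraries of a group came from separate hearts, so p-values measure only the spread between these libraries, which may be technical.

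A collagen molecule is built of 3 chains wound into a triple helix. Fibrillar collagens (types I, III and V) form the load-bearing fibres between heart muscle cells, type IV chains form the sheet of the basement membrane that surrounds cardiomyocytes and vessels, and type VI forms beaded filaments between them. Fibril-associated collagens decorate the fibres, multiplexins sit between basement membrane and stroma, and transmembrane collagens are held in the cell surface. Cardiac fibroblasts are known as the main makers of fibrillar collagen, and pericytes and endothelial cells as makers of vascular basement membrane.

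Levels are given as CPM, the counts of unique molecular identifiers (UMIs) of a gene per 1000000 UMIs in the summed nuclei of a class and library. They compare the same gene between classes or libraries and not different genes with each other, since no length was taken into account. In every list of 6 values the order is WT-CD 1 and 2, R403Q-CD 1 and 2, and R403Q-EMPA 1 and 2. The libraries held 31787308 to 45397128 UMIs, and after filtering 6381 to 9487 nuclei each. Nuclei were clustered without the collagen genes, and 10 classes were named "-like" from their markers and had at least 20 nuclei in every library. They ranged from 14126 fibroblast-like and 12495 endothelial-like to 301 smooth muscle-like and 242 epicardial-like nuclei. Each library pair shared 23 to 56 cell barcodes. A pair of libraries stood apart in ways that touch the collagens. In R403Q-EMPA 1, 36.57% of the fibroblast-like nuclei fell in the cluster led by Ltbp2, Cilp, Dkk3 and Postn, against 3.95 to 9.516% in the other 5. In WT-CD 1, the fibroblast transcript Dcn was raised in classes that do not make it, with 369 CPM in endothelial-like nuclei against 103 to 130 CPM in the others.

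Of the 601694 collagen UMIs in all nuclei, 66.65% came from fibroblast-like, 11.67% from endothelial-like, 6.941% from cardiomyocyte-like, 6.029% from pericyte-like and 5.404% from endocardial-like nuclei. The summed level of the 44 genes was highest in fibroblast-like nuclei in 5 of 6 libraries, at 7827, 6606, 7272, 6980, 9819 and 7460 CPM. Epicardial-like nuclei held 3824 to 8300 CPM and were the higher class in R403Q-EMPA 2, where they numbered 28, and cardiomyocyte-like nuclei held 551 to 874 CPM. The share from fibroblast-like nuclei was 91.13% for network-forming, 87.86% for beaded filament, 83.6% for multiplexin and 78.63% for fibrillar collagens. It was 39.41% for basement membrane and 3.602% for transmembrane collagens, so that these types came mostly from other cells. Each gene was given a source class, the class of its highest mean CPM, where it had at least 50 UMIs there. A source class could give few of a gene's UMIs. Fibroblast-like nuclei gave 85.07% of the UMIs of Col3a1, 76% of Col14a1, 80.45% of Col16a1 and 95.8% of Col6a6, all with an epicardial-like source. They also gave 50.04% of Col4a3, 55.71% of Col4a4 and 40.91% of Col4a1, the last against 34.32% from endothelial-like nuclei. The source was fibroblast-like for 11 genes, epicardial-like for 5, endocardial-like, pericyte-like and endothelial-like for 3 each, cardiomyocyte-like and smooth muscle-like for 2 each and lymphatic endothelial-like for 1, and 14 genes had none. These levels by class are a description without a test.

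**Figure D1:**
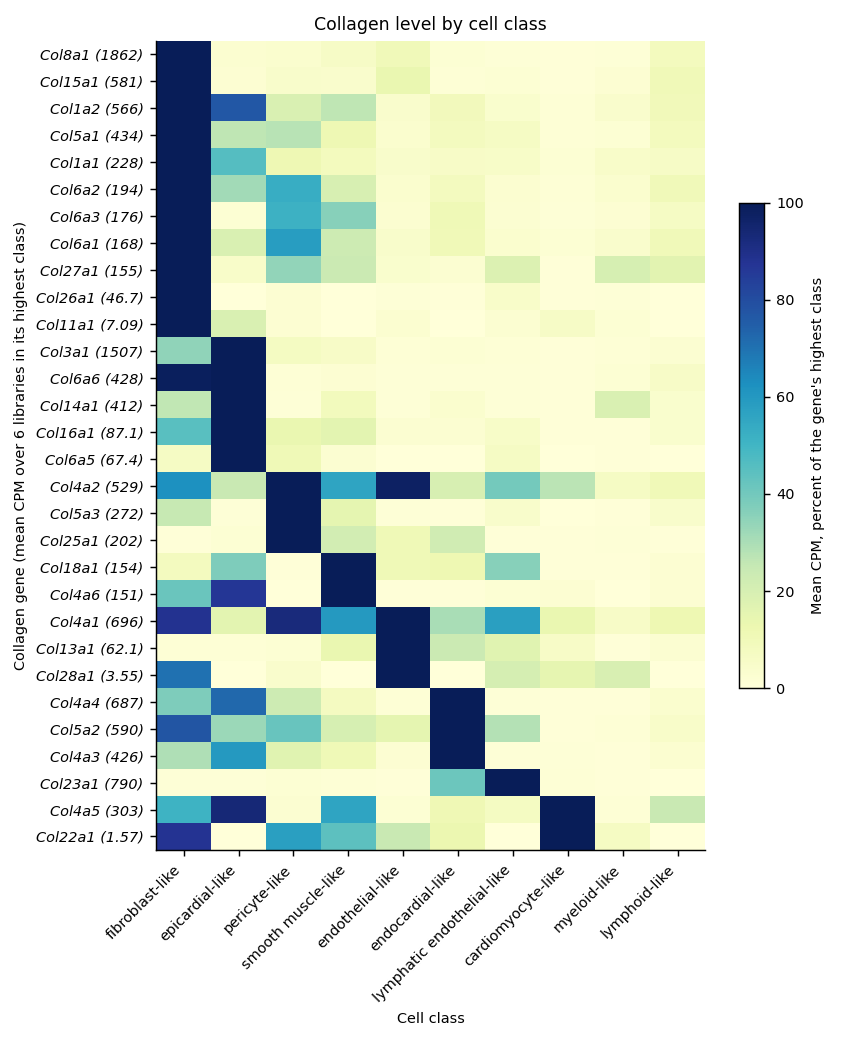
Each row is 1 of the 30 collagens with a source class, with its mean CPM over 6 libraries in that class in parentheses, and each column is 1 of the 10 classes. The colour gives the mean CPM as a percent of the gene's highest class: 11 rows are darkest in the fibroblast-like column, and the type IV rows are darkest in 5 different columns.

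Among the fibrillar collagens, Col1a1 and Col1a2, the chains of type I collagen, had their highest level in fibroblast-like nuclei. Col1a1 was at 298, 106, 134, 150, 470 and 210 CPM there, and Col1a2 at 648, 360, 453, 464, 857 and 618 CPM. WT-CD 1 and R403Q-EMPA 1 were the highest of the 6 for both chains, so that the spread within a group was as wide as that between groups. Of all Col1a1 UMIs, 89.12% came from fibroblast-like nuclei. The pericyte-like level of Col1a1 was 11.59% of the fibroblast-like one, whereas myeloid-like nuclei, which should lack the gene, were at 5.059% and lymphoid-like nuclei at 6.108%. Endothelial-like Col1a1, at 4.554%, was no higher than in these immune classes. Col3a1, the chain of type III collagen, was highest in the 242 epicardial-like nuclei, with 1029, 1070, 926, 841, 1402 and 3775 CPM. Its fibroblast-like level was 702, 291, 389, 328, 991 and 426 CPM. The epicardial-like value was above the fibroblast-like one in all 6 libraries, and R403Q-EMPA 2 held the highest.

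The type V chains had different source classes. Fibroblast-like nuclei still gave the most UMIs of each, at 87.7% for Col5a1, 60.41% for Col5a2 and 49.58% for Col5a3. Col5a1, which every type V molecule needs, was a fibroblast-like gene at 454, 455, 388, 326, 534 and 446 CPM. Col5a2 had its highest class mean in endocardial-like nuclei, the lining of the ventricular cavity, at 527, 603, 617, 626, 678 and 489 CPM against 340 to 712 CPM in fibroblast-like nuclei. With libraries pooled, the endothelial-like cluster led by Gja5 was at a like level, 610 CPM beside 596.5 CPM in the endocardial-like cluster. The endothelial-like clusters led by Btnl9 and Gabrb2 were at 15.7 and 24 CPM. Col5a3, a chain of a less common form of type V, was highest in pericyte-like nuclei, the cells that wrap capillaries. Its levels were 231, 206, 259, 207, 392 and 339 CPM there and 45.7 to 101 CPM in fibroblast-like nuclei, and both R403Q-EMPA libraries stood above the other 4. Col27a1, a fibrillar collagen best known from cartilage, was fibroblast-like at 140, 175, 171, 152, 165 and 131 CPM. Col11a1, a partner of type V chains that is prominent in cartilage, was low at 3.23, 1.08, 1.29, 3.31, 20.2 and 13.4 CPM in fibroblast-like nuclei, and is described further with the R403Q-EMPA comparisons.

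The 6 type IV chains had 5 different source classes. Col4a1 and Col4a2, the pair found in nearly every basement membrane, were highest in vascular cells. Col4a1 was at 657, 487, 633, 562, 985 and 854 CPM in endothelial-like nuclei, with pericyte-like nuclei at 448 to 980 CPM and fibroblast-like nuclei at 472 to 782 CPM. These ranges overlapped, although within a library the endothelial-like value was above the fibroblast-like one in 6 of 6 and above the pericyte-like one in 5 of 6. Col4a2 was at 406, 424, 457, 490, 792 and 607 CPM in pericyte-like and 385 to 750 CPM in endothelial-like nuclei, again within the spread. Col4a3 and Col4a4, which join with Col4a5 in the specialised network known from the kidney glomerulus, were highest in endocardial-like nuclei. Col4a3 stood there at 520, 546, 518, 449, 162 and 363 CPM and Col4a4 at 880, 811, 777, 643, 385 and 627 CPM. Both R403Q-EMPA libraries were below the other 4 for either gene. Col4a5 was highest in cardiomyocyte-like nuclei, at 298, 269, 293, 296, 349 and 314 CPM, and 67.71% of its UMIs came from that class. The next class for Col4a5, epicardial-like nuclei, reached 182 to 402 CPM and overlapped it. Col4a6, which pairs with Col4a5 in smooth muscle basement membrane, had its highest mean in smooth muscle-like nuclei, at 272, 114, 164, 89.1, 96.0 and 172 CPM on 147 UMIs in all, with epicardial-like nuclei at 65.3 to 175 CPM. Smooth muscle-like nuclei were its highest class in 2 of 6 libraries and gave 3.792% of its UMIs, against 84.34% from fibroblast-like nuclei.

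Type VI collagen is assembled from Col6a1, Col6a2 and another, longer chain. Col6a1 was at 242, 110, 131, 123, 230 and 171 CPM in fibroblast-like nuclei, Col6a2 at 221, 138, 167, 140, 281 and 215 CPM, and Col6a3 at 170, 140, 151, 136, 282 and 178 CPM. Pericyte-like nuclei were the next class for all 3 chains, with means of 97.7, 102 and 90.9 CPM. Col6a6, an alternative to Col6a3, was at 304, 415, 442, 549, 344 and 511 CPM in epicardial-like nuclei and at 404, 467, 555, 544, 199 and 362 CPM in fibroblast-like nuclei, which did not differ beyond their spread. Col6a5, another alternative chain, rested on 53 UMIs in epicardial-like nuclei, at 6.62, 9.64, 66.8, 59.4, 55.3 and 207 CPM, with both WT-CD libraries the lowest.

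Col8a1, a chain of the network-forming type VIII collagen of vessel walls and of Descemet's membrane in the eye, had the most UMIs of any member, 109214. It was at 1712, 1896, 1947, 1968, 2184 and 1467 CPM in fibroblast-like nuclei, and 91.19% of its UMIs came from them. Its level in the next class, endothelial-like nuclei, was 136 to 214 CPM, a ratio of 9.929 between the means, and the ranges did not overlap. That class was uneven. With libraries pooled, its cluster led by Gja5 was at 1083 CPM on 1903 UMIs and that led by Gabrb2 at 27.18 CPM, beside 1370 CPM in the fibroblast-like cluster led by Gfpt2. When every nucleus was thinned to 500 UMIs, which left out no nucleus, 45.84% of fibroblast-like nuclei held a Col8a1 UMI against 0.8455% of myeloid-like nuclei. Without thinning the shares were 82.81% and 4.11%, at median depths of 2528 to 4564 and 2410 to 3718 UMIs per library. The partner chain Col8a2 had 181 UMIs in all nuclei.

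Among the fibril-associated collagens, Col14a1, which binds the surface of type I fibres, was highest in epicardial-like nuclei at 420, 535, 350, 379, 449 and 337 CPM. Its fibroblast-like level was 62.0 to 178 CPM, below every epicardial-like value. Col16a1, a minor component of fibrils and microfibrils, showed 72.8, 72.3, 83.4, 50.3, 135 and 109 CPM in epicardial-like and 30.3 to 62.0 CPM in fibroblast-like nuclei, and was higher in the former in all 6 libraries. Col12a1, which also coats fibrils and is known from tissue under load, was at 5.48, 5.86, 5.50, 11, 35.3 and 17.4 CPM in fibroblast-like nuclei, with R403Q-EMPA the highest pair. Its highest mean lay in epicardial-like nuclei, at 16.5, 14.5, 33.4, 9.14, 18.4 and 10.9 CPM, but on 18 UMIs, under the 50 asked of a source class. Col22a1, a collagen of tissue junctions, was detected at 1.77, 1.73, 1.89, 2.06, 0.917 and 1.048 CPM in cardiomyocyte-like nuclei, where both R403Q-EMPA libraries were lowest. Its fibroblast-like level of 0, 0, 0, 3.41, 2.23 and 2.6 CPM was not told apart from it.

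Each of the 3 transmembrane collagens with a source class marked a different vascular or stromal class. Col23a1 was at 789, 994, 869, 714, 873 and 502 CPM in lymphatic endothelial-like nuclei and 423, 330, 458, 295, 255 and 187 CPM in endocardial-like nuclei, with 14.0 CPM on average in the next class, pericyte-like nuclei. Thinned to 500 UMIs, 26.57% of lymphatic endothelial-like nuclei and 0.1215% of blood endothelial-like nuclei held a Col23a1 UMI, against 61.48% and 0.5969% without thinning. Col25a1, named for its presence in amyloid plaques of the brain, was at 257, 222, 194, 217, 152 and 168 CPM in pericyte-like nuclei, which gave 64.2% of its UMIs, and both R403Q-EMPA libraries were below the other 4. Col13a1, a collagen of cell adhesion sites, was at 61.4, 81.4, 60.1, 51.0, 52.3 and 66.3 CPM in endothelial-like nuclei, which gave 82.85% of its UMIs. Although the collagens had been left out of the clustering, Col13a1 was among the 10 leading genes of the endothelial-like cluster led by G630055G22Rik and Kirrel3.

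The multiplexins, Col15a1 and Col18a1, whose C-terminal ends release the fragments restin and endostatin, differed in source. Col15a1 was fibroblast-like at 572, 520, 515, 402.9, 735 and 740 CPM, with 86.82% of its UMIs there, and the R403Q-EMPA pair was the highest. Col18a1 was highest in smooth muscle-like nuclei at 206, 220, 49.1, 54.4, 221 and 172 CPM on 168 UMIs, with the R403Q-CD pair lowest. Col26a1, a little-studied secreted collagen, was the member most confined to 1 class, with 97.22% of its UMIs from fibroblast-like nuclei. It stood at 57.8, 54.7, 55.5, 55.0, 24.0 and 33.6 CPM, so that the 4 libraries on control diet lay close together and both R403Q-EMPA libraries below them. Col28a1, known from peripheral nerve, was at 3.13, 2.28, 2.05, 4.03, 3.53 and 6.25 CPM in endothelial-like nuclei. In fibroblast-like nuclei it reached 11.7 CPM in R403Q-EMPA 1 alone, against 0 to 1.17 CPM in the other 5.

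The 14 genes without a source class had 4 to 2648 UMIs in all nuclei. Col2a1, the cartilage fibril chain, had 4, Col9a1 10, Col9a2 29, Col6a4 61 and Col10a1 79. Col17a1, the hemidesmosome collagen of skin, had 123, Col19a1 209, Col9a3 216, Col7a1 302, Col11a2 305 and Col24a1 405. Col12a1 had 896 and Col20a1 2648, the latter at 22.9 to 29.3 CPM in fibroblast-like nuclei and 11.6 to 22.0 CPM in myeloid-like nuclei. Col19a1, a fibril-associated collagen that smooth muscle is known to make, fell just short of the limit, with 45 UMIs in smooth muscle-like nuclei at 66.6, 32.0, 57.2, 39.6, 29.2 and 53.9 CPM. Every one of these libraries was above the 1.72 to 11.4 CPM of pericyte-like nuclei, the next class.

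Chains that share a molecule could be set side by side over the 10 classes, as a description. These points share libraries and depth. On log2(CPM + 1), Pearson's r was 0.943 for Col1a1 and Col1a2, 0.934 for Col4a1 and Col4a2, 0.991 for Col4a3 and Col4a4, and 0.987 for Col6a1 and Col6a2. It was 0.897 for Col6a1 and Col6a3, 0.775 for Col5a1 and Col5a2, 0.769 for Col4a5 and Col4a6 and 0.474 for Col8a1 and Col8a2. Col15a1 and Col18a1, which share a structural type but no molecule, had r = 0.0705.

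Promoter sequence is shown for 5 of the members called between groups in the tests described further on, whose window overlapped no exon, each with the class of its call: Col5a3, Col6a3 and Col8a1 (pericyte-like), Col11a1 (fibroblast-like) and Col13a1 (cardiomyocyte-like). The call of Col8a1 depended on the settings, as given with its values. The RefSeq promoter table (GRCm38.p6) held 35 of the 44 members in 38 windows. Each sequence is the 250 bases before the start site, 5′ to 3′ on the gene's strand, and capitals mark 3 motifs searched on both strands, the CCAAT box (CCAAT), the GC box (GGGCGG) and the TATA box (TATAAA). The windows are chr9:20815068-20815317 (minus strand) for Col5a3, chr1:90843972-90844221 (minus) for Col6a3, chr16:57754738-57754987 (minus) for Col8a1, chr3:114030290-114030539 (plus) for Col11a1 and chr10:61979109-61979358 (minus) for Col13a1.
Col5a3: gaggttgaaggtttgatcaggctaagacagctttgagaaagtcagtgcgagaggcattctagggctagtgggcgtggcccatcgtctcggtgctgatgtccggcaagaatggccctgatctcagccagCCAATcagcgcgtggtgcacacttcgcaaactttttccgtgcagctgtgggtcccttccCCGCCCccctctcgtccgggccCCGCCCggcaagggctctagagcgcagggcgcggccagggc
Col6a3: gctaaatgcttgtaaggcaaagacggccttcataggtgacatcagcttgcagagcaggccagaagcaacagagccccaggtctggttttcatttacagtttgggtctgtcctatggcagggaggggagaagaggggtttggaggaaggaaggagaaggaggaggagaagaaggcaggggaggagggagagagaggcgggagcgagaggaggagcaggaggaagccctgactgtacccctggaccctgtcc
Col8a1: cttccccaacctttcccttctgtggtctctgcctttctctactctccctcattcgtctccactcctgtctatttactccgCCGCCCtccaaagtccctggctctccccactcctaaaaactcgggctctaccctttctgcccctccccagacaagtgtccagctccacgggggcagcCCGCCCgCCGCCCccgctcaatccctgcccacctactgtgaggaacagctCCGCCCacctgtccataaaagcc
Col11a1: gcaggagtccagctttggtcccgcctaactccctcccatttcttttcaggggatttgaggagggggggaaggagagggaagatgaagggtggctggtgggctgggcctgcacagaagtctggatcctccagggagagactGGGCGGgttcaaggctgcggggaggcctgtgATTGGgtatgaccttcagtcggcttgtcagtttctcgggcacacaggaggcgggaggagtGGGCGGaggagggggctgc
Col13a1: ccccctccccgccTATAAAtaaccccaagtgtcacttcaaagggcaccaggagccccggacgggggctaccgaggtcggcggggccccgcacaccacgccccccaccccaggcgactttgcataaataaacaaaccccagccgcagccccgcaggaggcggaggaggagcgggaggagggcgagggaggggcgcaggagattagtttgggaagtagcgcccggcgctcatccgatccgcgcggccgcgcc
Col8a1 held 4 GC boxes (GGGCGG), the nearest starting 23 bases before the start site. Col5a3 and Col11a1 each held 1 CCAAT box and 2 GC boxes. Col13a1 held 1 TATAAA, 237 bases before the start site, and Col6a3 held none of the 3 motifs. Over all 32851 windows of the table, CCAAT stood in 33.8%, GGGCGG in 32.7% and TATAAA in 12.4%, against 34.2%, 57.9% and 13.2% of the 38 collagen windows. A match is a description of letters and not a binding site. Col4a1 and Col4a2 start head to head on chromosome 8 of that build, and their 300-base windows overlap by 78 bases.

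Differences between groups were tested with edgeR's quasi-likelihood test on UMI counts summed per library, in 5 classes (fibroblast-like, pericyte-like, endothelial-like, endocardial-like and cardiomyocyte-like) and in all nuclei, with Benjamini-Hochberg adjustment over all genes of each sum. The threshold for a call was an adjusted p of 0.05, and "log2 difference" below is the fitted log2 fold change of CPM with its standard error (SE). Of the 44 members, 36 passed the filter on low counts in fibroblast-like, 25 in pericyte-like, 29 in endothelial-like, 22 in endocardial-like and 28 in cardiomyocyte-like nuclei, and 41 in all nuclei. The 3 comparisons, one for every pairing of the groups, share libraries, and each library serves in all but 1 of them.

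R403Q-CD was first set against WT-CD, for the untreated mutant heart before hypertrophy. No collagen was called in any of the 6 sums. Over all genes, 0% were called in fibroblast-like, pericyte-like, endothelial-like and endocardial-like nuclei and in all nuclei, and 0.0628% in cardiomyocyte-like nuclei. At an unadjusted p below 0.05 there were 4 members in fibroblast-like (3.07% of all genes), 5 in pericyte-like (3.63%), 1 in endothelial-like (3.45%), 2 in endocardial-like (3.61%) and 3 in cardiomyocyte-like nuclei (6.6%), and 8 in all nuclei (4.48%). DESeq2 called 1 member in fibroblast-like nuclei (Col4a6) and 1 in cardiomyocyte-like nuclei (Col13a1) and none elsewhere, against 0.0364% and 0.416% of all genes there, 0.00473% in pericyte-like, 0.00847% in endothelial-like and 0% in endocardial-like nuclei and 0.221% in all nuclei. The median log2 difference of the members tested was 0.004 in fibroblast-like nuclei and -0.02 in pericyte-like nuclei, with medians of -0.008 and 0.001 over all genes. It was -0.17, -0.14 and -0.39 in endothelial-like, endocardial-like and cardiomyocyte-like nuclei. In these 3 classes the summed markers of fibroblasts were also highest in WT-CD 1, for example 375 CPM in cardiomyocyte-like nuclei against 150 to 187 CPM in the other 5 libraries, and their part in the result was not tested.

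The summed collagen level of fibroblast-like nuclei was 7217 ± 863 CPM in WT-CD and 7126 ± 207 CPM in R403Q-CD (SD, n = 2). The difference of -90.6 CPM was within the spread (exact permutation test, two-sided, p = 1), in a design whose smallest possible p is 0.3333. Col4a6 had the smallest p of any member in fibroblast-like nuclei. It was at 43.1, 43.9, 82.0, 88.3, 55.1 and 64.2 CPM, so that both R403Q-CD libraries were above both WT-CD libraries and the R403Q-EMPA pair lay between. Its log2 difference was 0.97 (SE 0.137, adjusted p = 0.256 in edgeR and 0.00359 in DESeq2). Its partner Col4a5 stood at 131, 122, 167, 202, 141 and 166 CPM in the same nuclei, with a log2 difference of 0.54 (SE 0.146) that was not called. In all nuclei Col4a6 was again first, at 19.1, 16.2, 26.2, 26.0, 14.9 and 15.9 CPM (log2 difference 0.60, SE 0.133, adjusted p = 0.683).

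In cardiomyocyte-like nuclei Col13a1 came first, at 5.66, 9.71, 1.29, 2.23, 1.41 and 0.786 CPM, on 48, 84, 13, 26, 20 and 9 UMIs. Both WT-CD libraries were above all 4 R403Q libraries, whichever the diet. The log2 difference of R403Q-CD from WT-CD was -2.14 (SE 0.445, adjusted p = 0.169 in edgeR and 0.0205 in DESeq2). In the remaining classes the member of smallest p was not called either. In pericyte-like nuclei it was Col4a3, at 63.0, 63.5, 85.4, 84.7, 56.8 and 72.7 CPM (log2 difference 0.45, SE 0.166), and in endothelial-like nuclei Col4a3 again, at 8.91, 6.58, 12.6, 12.0, 5.56 and 6.25 CPM (log2 difference 0.73, SE 0.237). In both classes the R403Q-CD pair was the highest of the 3. In endocardial-like nuclei it was Col14a1, at 26.7, 12.8, 3.16, 8.10, 16.7 and 17.3 CPM (log2 difference -1.64, SE 0.438), where R403Q-CD was the lowest pair and WT-CD 1 the highest library. Adjusted p in edgeR was 0.999 for Col4a3 in pericyte-like nuclei and 1.000 for Col14a1.

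R403Q-EMPA was set against R403Q-CD to see what the treatment changed in the mutant heart, and against WT-CD to see where treated mutant hearts stood beside healthy ones. In pericyte-like nuclei 3 of the 25 members tested were called against R403Q-CD (0.565% of all genes) and 4 against WT-CD (1.69%). DESeq2 called 2 (0.298%) and 4 (0.648%). Col6a3 (ENSMUSG00000048126), the long chain of type VI collagen, was at 59.8, 59.9, 67.3, 65.0, 178 and 115 CPM. Both R403Q-EMPA libraries were above the other 4, which lay close together. Col6a3 rose by 1.11 on the log2 scale against R403Q-CD (SE 0.187, adjusted p = 0.00849) and by 1.28 against WT-CD (SE 0.186, adjusted p = 0.00138). Without R403Q-EMPA 1 the log2 differences were 0.79 (adjusted p = 0.185) and 0.95 (adjusted p = 0.0337). The call against WT-CD was the only one of the pericyte-like calls kept without that library, and the call against R403Q-CD was also lost without R403Q-CD 1 or R403Q-CD 2 (log2 differences 1.13 and 1.08).

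Col1a2 (ENSMUSG00000029661) in pericyte-like nuclei was at 105, 79.4, 84.1, 77.1, 163 and 132 CPM, again with R403Q-EMPA the highest pair. It rose by 0.83 against R403Q-CD (SE 0.168, adjusted p = 0.0300) and was not called against WT-CD (log2 difference 0.67, adjusted p = 0.0552). The call was lost in DESeq2 (adjusted p = 0.0566) and without R403Q-CD 1 or R403Q-CD 2 (log2 differences 0.89 and 0.77). Its partner Col1a1 stood at 35.1, 13.1, 17.3, 19.7, 47.3 and 26.0 CPM, where WT-CD 1 lay between the 2 R403Q-EMPA libraries, and was not called. Col8a1 (ENSMUSG00000068196) moved the other way, at 73.0, 64.9, 81.0, 75.0, 44.7 and 41.6 CPM. It fell by 0.89 against R403Q-CD (SE 0.183, adjusted p = 0.0377), and its difference from WT-CD was -0.69 (adjusted p = 0.0828). With no filter on mitochondrial reads the Col8a1 difference from R403Q-CD was -0.22, and DESeq2 gave an adjusted p of 0.171, so that this call rested on the settings. It was also lost without R403Q-CD 1, R403Q-CD 2 or R403Q-EMPA 2 (-0.83, -0.95 and -0.87). Pericyte-like Col8a1 was 3.402% of the fibroblast-like level, between the 1.103% of myeloid-like and the 8.513% of lymphoid-like nuclei. It was above the myeloid-like level of 4.55 to 32.0 CPM in all 6 libraries. The lymphoid-like level was uneven, at 22.8, 438, 181, 245, 18.7 and 44.9 CPM on 3 to 80 UMIs.

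Col5a3 (ENSMUSG00000004098), the fibrillar chain whose source class these nuclei are, rose by 0.73 against WT-CD (SE 0.150, adjusted p = 0.0181). Against R403Q-CD its log2 difference was 0.62 (adjusted p = 0.0976). Col4a1 (ENSMUSG00000031502) was at 559, 448, 548, 569, 980 and 756 CPM and Col4a2 (ENSMUSG00000031503) at 406, 424, 457, 490, 792 and 607 CPM, with both R403Q-EMPA libraries the highest of the 6. They rose by 0.78 (SE 0.155, adjusted p = 0.0163) and 0.74 (SE 0.153, adjusted p = 0.0196) against WT-CD. Against R403Q-CD the log2 differences were 0.60 (adjusted p = 0.12) and 0.53 (adjusted p = 0.187). Without R403Q-EMPA 1 none of Col1a2, Col8a1, Col5a3, Col4a1 and Col4a2 was called, with log2 differences of 0.70, -0.92, 0.65, 0.60 and 0.56 in the comparison that had called each. Without R403Q-CD 2, which serves the shared estimate of spread, Col5a3, Col4a1 and Col4a2 were not called against WT-CD either (0.73, 0.77 and 0.73), nor were Col4a1 and Col4a2 without R403Q-CD 1 (0.77 and 0.73). The summed fibroblast markers in pericyte-like nuclei were 2577, 2250, 2182, 2240, 1657 and 1918 CPM, lowest in the R403Q-EMPA pair, where Col6a3, Col1a2, Col5a3, Col4a1 and Col4a2 were highest. Most of that sum was Abca8a, at 1395, 1487, 1399, 1403, 912 and 1090 CPM, which was also lowest in the fibroblast-like nuclei of that pair. Dcn, at 376, 112, 122, 135, 133 and 122 CPM, was not lower there than in WT-CD 2 or R403Q-CD 1. The summed cardiomyocyte markers, at 2121, 1678, 2791, 2639, 3245 and 2909 CPM, and smooth muscle markers, at 51.9, 58.5, 57.1, 61.0, 67.1 and 77.1 CPM, were highest in that pair, and the endothelial markers, at 329.9, 203.9, 252.2, 317.4, 479 and 320.4 CPM, in R403Q-EMPA 1. The part of these markers in the result was not tested. At an unadjusted p below 0.05 there were 12 members against R403Q-CD (8 higher, 4 lower) and 9 against WT-CD (6 higher, 3 lower), beside 8.81% and 12.2% of all genes. The median log2 difference of the members was 0.15 and 0.17, with 0.006 and 0.002 over all genes.

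**Figure D2:**
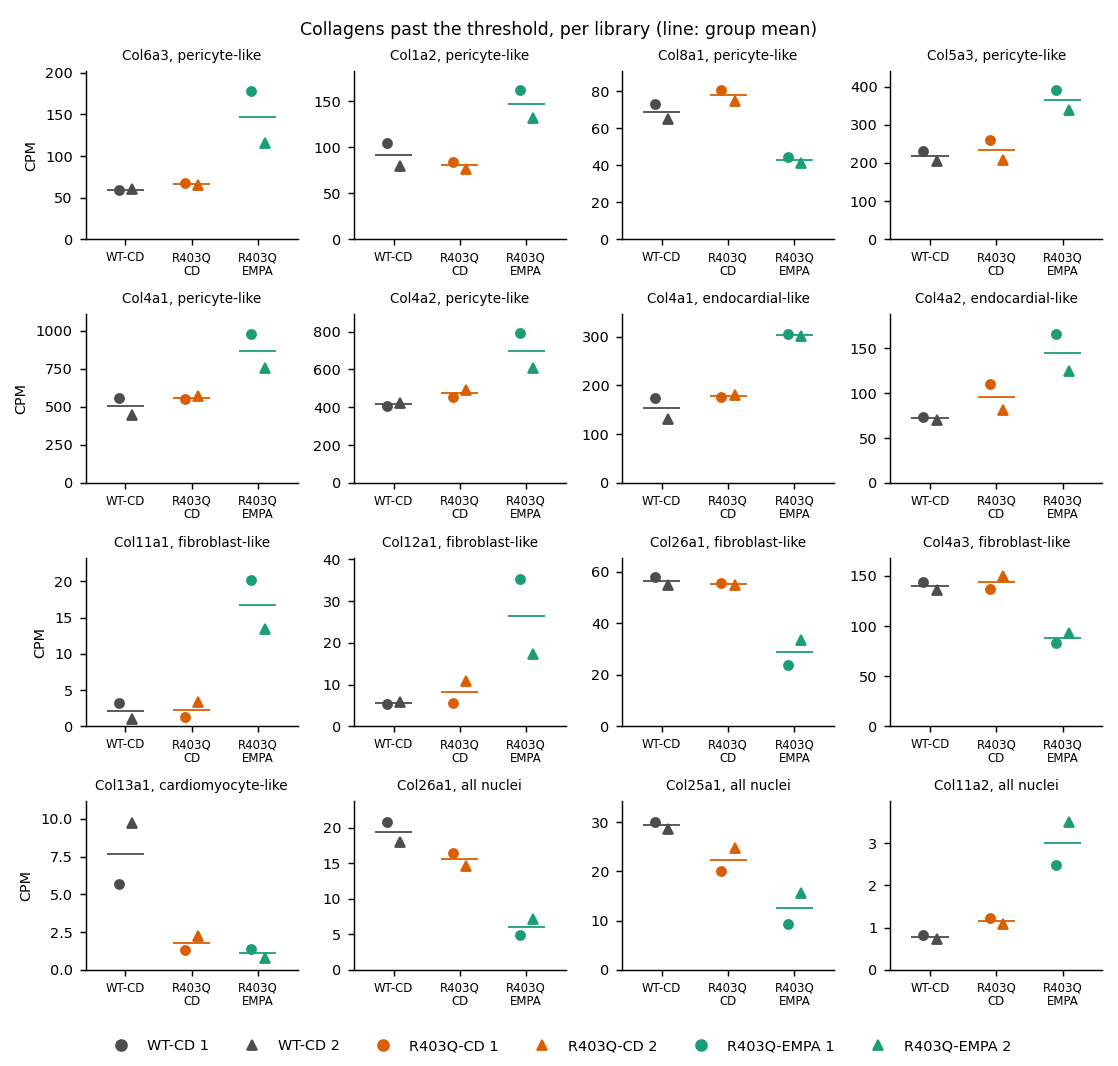
Each panel is a collagen called in a class or in all nuclei, each point is a library's CPM on a linear axis from 0, and lines are group means (n = 2). In pericyte-like nuclei both R403Q-EMPA points of Col6a3, Col1a2, Col5a3, Col4a1 and Col4a2 lie above the other 4, and those of Col8a1 below them.

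In fibroblast-like nuclei 0 of the 36 members tested were called against R403Q-CD (0.345% of all genes) and 4 against WT-CD (1.22%), which were Col11a1, Col12a1, Col26a1 and Col4a3. Against R403Q-CD, DESeq2 called 8 members (0.999% of all genes), and 21 had an unadjusted p below 0.05, 16 higher and 5 lower (13.2% of all genes). Against WT-CD there were 18 at that level, 14 higher and 4 lower (14.3%), and DESeq2 called 7 (1.6%). The median log2 difference of the members was 0.47 against R403Q-CD and 0.42 against WT-CD, beside 0.0006 and -0.004 over all genes. Without R403Q-EMPA 1 the medians were 0.22 and 0.13 and no member was called. Without the nuclei of the cluster led by Ltbp2, Cilp, Dkk3 and Postn they were 0.27 and 0.11. The summed level, 8640 ± 1668 CPM in R403Q-EMPA (SD, n = 2), differed from R403Q-CD by 1513 CPM and from WT-CD by 1423 CPM (exact permutation tests, two-sided, p = 0.3333 and 0.667). These differences were near the pooled SDs of 1189 and 1328 CPM. Without R403Q-EMPA 1 they were 334 and 243 CPM, and without R403Q-EMPA 2 2693 and 2603 CPM. Without WT-CD 2 the difference from WT-CD was 812 CPM, and without the Ltbp2-led cluster the differences were 241 and 152 CPM.

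**Figure D3:**
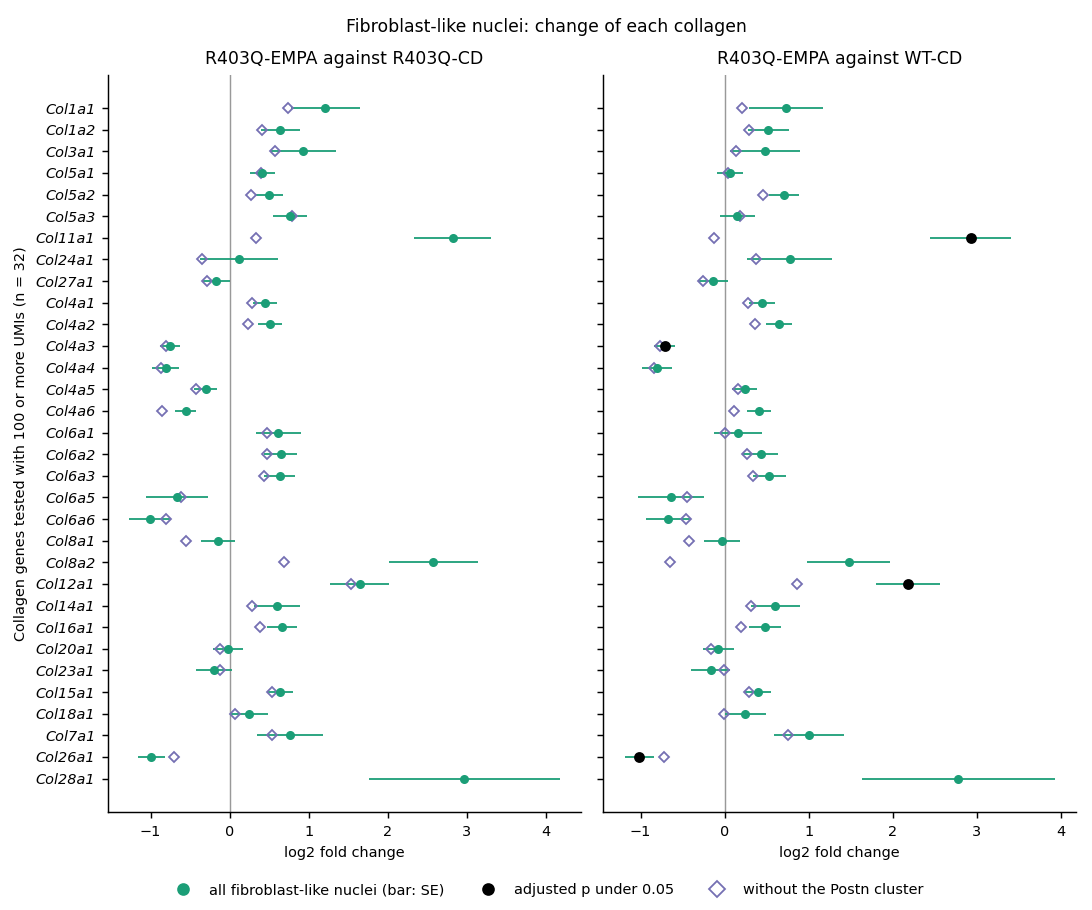
Filled points are the log2 difference of each of the 32 collagens tested with at least 100 UMIs in fibroblast-like nuclei, bars are the SE, black points are calls, and open diamonds are the difference without the cluster led by Ltbp2, Cilp, Dkk3 and Postn. Col11a1, Col12a1, Col8a2 and Col28a1 lie far to the right and Col26a1, Col4a3, Col4a4 and Col6a6 to the left of 0. Col8a2 and Col28a1, at 2.58 and 2.97 against R403Q-CD on 150 and 117 UMIs, were not called. The diamond of Col11a1 against WT-CD lies at -0.13.

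Col11a1 (ENSMUSG00000027966) had 36, 12, 12, 31, 145 and 67 UMIs in fibroblast-like nuclei, and rose by 2.93 against WT-CD (SE 0.482, adjusted p = 0.0322). Its levels, given above, put both R403Q-EMPA libraries above the other 4. Against R403Q-CD the difference was of like size, 2.83 (SE 0.488, adjusted p = 0.0508), and was not called. Of its fibroblast-like UMIs, 75.9% lay in the Ltbp2-led cluster, which held 5.21, 4.92, 4.50, 7.83, 42.3 and 11.7% of the fibroblast-like UMIs of the 6 libraries. Within that cluster Col11a1 stood at 15.5, 3.67, 0, 28.6, 46.8 and 96.0 CPM. Outside it the levels were 2.56, 0.949, 1.35, 1.16, 0.725 and 2.49 CPM, and the log2 difference from WT-CD was -0.13. The rise of Col11a1 was thus not seen outside that cluster.

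Col12a1 (ENSMUSG00000032332) rose by 2.18 against WT-CD (SE 0.379, adjusted p = 0.0380). Of its fibroblast-like UMIs, 62.6% lay in the same cluster. Outside the cluster it was at 4.93, 4.74, 2.48, 3.59, 11.8 and 6.34 CPM, with R403Q-EMPA still the highest pair and a log2 difference of 0.86 that was not called. Within the cluster it was at 15.5, 27.5, 69.4, 98.2, 67.2 and 101 CPM, where only WT-CD was low. Without R403Q-EMPA 1 the differences of Col11a1 and Col12a1 from WT-CD were 2.62 (adjusted p = 0.187) and 1.59 (adjusted p = 0.236). Both calls were also lost without WT-CD 2 (2.40 and 2.30), and that of Col12a1 without WT-CD 1 (2.09).

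Col26a1 (ENSMUSG00000004415) and Col4a3 (ENSMUSG00000079465) fell in R403Q-EMPA against WT-CD. Col26a1 fell by 1.02 (SE 0.173, adjusted p = 0.0363) and Col4a3 by 0.71 (SE 0.128, adjusted p = 0.0408). The Col4a3 levels were 144, 136, 137, 150, 82.7 and 92.8 CPM, with the R403Q-EMPA pair below the other 4, as for Col26a1. Against R403Q-CD the differences were -0.99 (adjusted p = 0.0541) for Col26a1 and -0.75 (SE 0.128, adjusted p = 0.0508) for Col4a3, the smallest p of that comparison. Outside the Ltbp2-led cluster Col26a1 was at 59.6, 56.7, 57.1, 57.5, 35.5 and 36.9 CPM and Col4a3 at 134, 121, 129, 132, 72.5 and 80.3 CPM. Both were called against WT-CD there (adjusted p = 0.0317 and 0.0206), and Col4a3 also against R403Q-CD (adjusted p = 0.0317). In each of the 4 fibroblast-like clusters both R403Q-EMPA values of Col26a1 were below the other 4, for example 58.2 and 53.4 CPM against 72.7 to 80.8 CPM in the cluster led by Kcnip1. Without R403Q-EMPA 1 neither gene was called (log2 differences -0.77 and -0.61), nor without WT-CD 2, R403Q-CD 1 or R403Q-CD 2, where the differences from WT-CD stayed at -1.01 for Col26a1 and -0.71 to -0.70 for Col4a3. Other genes were lowest in the same pair of libraries. In fibroblast-like nuclei the fibroblast marker Abca8a was at 4713, 5183, 4791, 4281, 2394 and 2931 CPM and Bicc1 at 2039, 2290, 2300, 2265, 1558 and 1580 CPM. The summed Schwann cell markers were 842.7, 853.4, 935.8, 912.6, 628.8 and 804.8 CPM and the adipocyte markers 30, 35.1, 26.0, 32.7, 21.5 and 20.2 CPM. The part of these markers in the result was not tested.

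**Figure D4:**
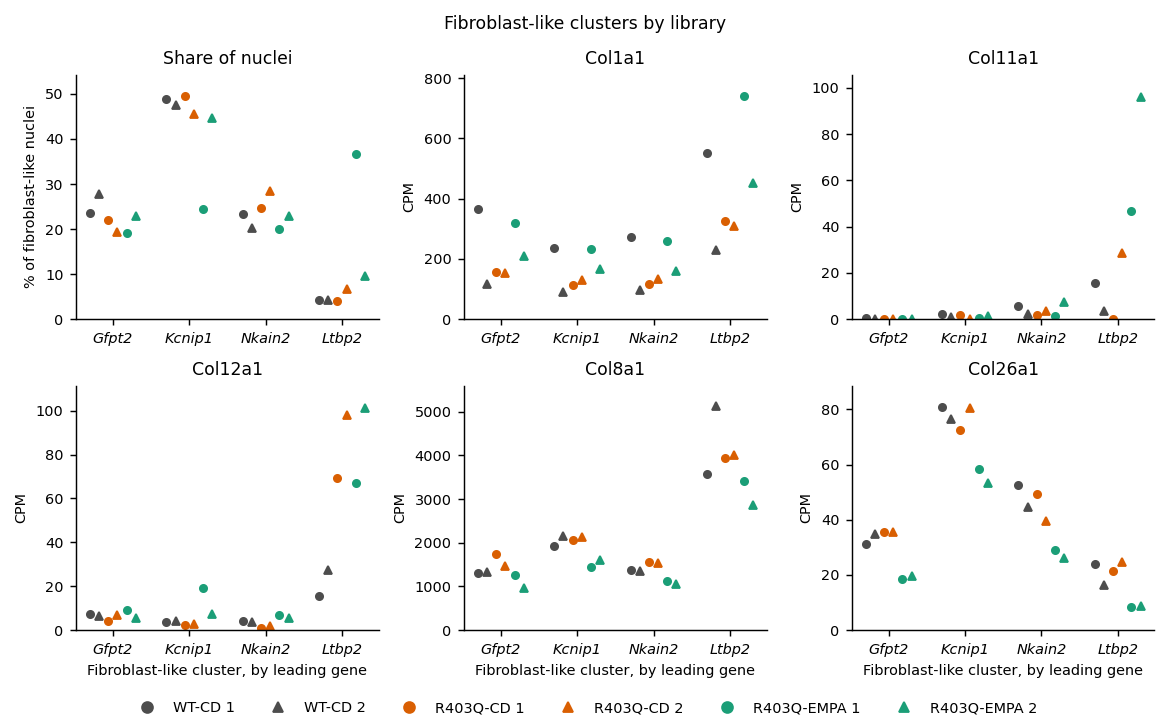
The share of fibroblast-like nuclei in percent and the level in CPM of 5 collagens are drawn for the 4 fibroblast-like clusters, named by their leading gene, each point a library coloured by group. Col11a1 is highest in the cluster led by Ltbp2, and both R403Q-EMPA points of Col26a1 lie below the other 4 in every cluster.

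The fibroblast-like clusters also differed in the collagens they made, in every group. The summed level was 10522 to 13391 CPM in the cluster led by Ltbp2, Cilp, Dkk3 and Postn, and 5682 to 7809 CPM over the other 3. Col8a1 was at 2859 to 5122 CPM in it and 960 to 2162 CPM in the others. Col14a1 was at 27.6 to 63.2 CPM in the cluster led by Kcnip1 and 105 to 203 CPM in the cluster led by Gfpt2 and Pi16, ranges that did not overlap. Col6a6 went the other way, at 377 to 646 CPM in the former and 108 to 282 CPM in the latter. Col1a1 was at 89.9 to 237 CPM in the former and 115 to 367 CPM in the latter, and was higher in the latter in all 6 libraries, for example 367 against 237 CPM in WT-CD 1 and 153 against 129 CPM in R403Q-CD 2.

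Basement membrane chains of the vessel were compared next. In endocardial-like nuclei 0 of 22 members were called against R403Q-CD (0.765% of all genes) and 2 against WT-CD (2.15%). Col4a1 was at 175, 132, 176, 181, 306 and 301 CPM and Col4a2 at 73.9, 70.6, 110, 81.8, 166 and 124 CPM, with R403Q-EMPA the highest pair for both. They rose by 0.96 (SE 0.157, adjusted p = 0.0104) and 0.98 (SE 0.196, adjusted p = 0.0300) against WT-CD. Against R403Q-CD the smallest p was that of Col4a1, with a difference of 0.74 (SE 0.157, adjusted p = 0.0581). Without R403Q-EMPA 1 the differences from WT-CD were 0.95 and 0.76 and were not called (adjusted p = 0.0730 and 0.267). The summed lymphatic endothelial markers in these nuclei were 270.3, 166.8, 200.1, 246.6, 339.2 and 319 CPM, highest in R403Q-EMPA, and the blood endothelial markers 7498, 7949, 7935, 8824, 8671 and 8731 CPM, lowest in WT-CD 1. The Col4a1 level was 315 to 513 CPM in lymphatic endothelial-like nuclei, and the part of these markers in the result was not tested. There were 8 members at an unadjusted p below 0.05 in each comparison (11.2 and 14.6% of all genes), and DESeq2 called 1 against R403Q-CD (0.542%) and 3 against WT-CD (0.975%). The median log2 difference of the members was 0.15 and -0.04, against -0.003 and 0.002 over all genes.

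In endothelial-like nuclei no member was called in either comparison, beside 0.192 and 0.726% of all genes. At an unadjusted p below 0.05 there were 9 of 29 against R403Q-CD (9.49% of all genes) and 7 against WT-CD (12.6%), and DESeq2 called 1 and 3 (0.495 and 0.834%). Col18a1, the source of endostatin, had the smallest p in both. It was at 11.6, 9.54, 10.7, 12.2, 35.5 and 19.8 CPM, with both R403Q-EMPA libraries highest and R403Q-EMPA 1 highest of all. Its mean level was 153.7 CPM in smooth muscle-like and 58.1 CPM in epicardial-like nuclei. The summed smooth muscle markers in endothelial-like nuclei were 15.4, 14.9, 17.1, 19.7, 31.0 and 12.2 CPM and the epicardial markers 104.8, 147.9, 106.5, 136.2, 162.4 and 170.1 CPM, and their part in the result was not tested. Its log2 difference was 1.28 against R403Q-CD (SE 0.259, adjusted p = 0.131) and 1.46 against WT-CD (SE 0.268, adjusted p = 0.0526). Col15a1 was at 52.3, 36.3, 55.9, 37.8, 238 and 50.0 CPM, so that R403Q-EMPA 1 alone stood out. Col4a1 and Col4a2 differed from WT-CD by 0.70 (SE 0.162) and 0.76 (SE 0.157). The median over the members was 0.47 and 0.12, beside 0.007 and 0.010 over all genes.

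In cardiomyocyte-like nuclei 0 of 28 members were called against R403Q-CD (0.23% of all genes) and 1 against WT-CD (3.92%). That one was Col13a1 (ENSMUSG00000058806), which fell by 2.86 (SE 0.463, adjusted p = 0.0119). Its UMI counts, given above, were 9 to 84 per library, and without R403Q-EMPA 1 the adjusted p was 0.0504 at a difference of -3.31. Of the cardiomyocyte-like clusters, the one led by Mylk4 held 190 of its UMIs (3.86 CPM), the one led by Nppa 6 (1.96 CPM) and the one led by Ryr3 4 (0.328 CPM). The summed lymphatic endothelial markers in cardiomyocyte-like nuclei were 182, 168, 145.4, 153.8, 141.4 and 115.6 CPM, also highest in WT-CD, and the pericyte markers 346.3, 342.1, 327.1, 343.1, 225.1 and 305 CPM, lowest in R403Q-EMPA. The part of these markers and clusters in the result was not tested. In endothelial-like nuclei, its source class, both R403Q-CD libraries (60.1 and 51.0 CPM) were below both WT-CD libraries (61.4 and 81.4 CPM), and the R403Q-EMPA pair (52.3 and 66.3 CPM) overlapped both groups. Col4a1 had the smallest p against R403Q-CD, at 80.3, 75.4, 60.0, 74.6, 180 and 88.3 CPM (log2 difference 0.94, SE 0.263, adjusted p = 0.193). R403Q-EMPA 1 was well above the rest, and without it the difference was 0.38. There were 3 and 4 members at an unadjusted p below 0.05 (12.3 and 19.2% of all genes), and DESeq2 called 1 against R403Q-CD (0.845%) and 1 against WT-CD (2.7%). The median over the members was 0.31 and -0.13, beside 0.008 and -0.0003 over all genes.

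Over the 5 classes, which share libraries, the 2 common type IV chains and the 2 endocardial ones went different ways. Col4a1 was higher in both R403Q-EMPA libraries than in both R403Q-CD libraries in 5 of 5 classes, with log2 differences of 0.45 to 0.94, and also against WT-CD, with 0.44 to 0.96. It was called in 2 classes against WT-CD and in 0 against R403Q-CD. Col4a2 differed by 0.47 to 0.60 from R403Q-CD without overlap in 5 of 5 classes and by 0.27 to 0.98 from WT-CD, without overlap in 4. Col4a3 was lower in 4 of 5 classes against R403Q-CD, from -1.12 to 0.55, and lower in 4 of 5 against WT-CD. Col4a4 was lower in 4 of 5 classes against R403Q-CD, from -0.81 to 0.85, and lower in 5 of 5 against WT-CD, from -0.80 to -0.14. The exception of Col4a3 and Col4a4 against R403Q-CD was the cardiomyocyte-like class, where both stood at 2.10 to 6.20 CPM.

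**Figure D5:**
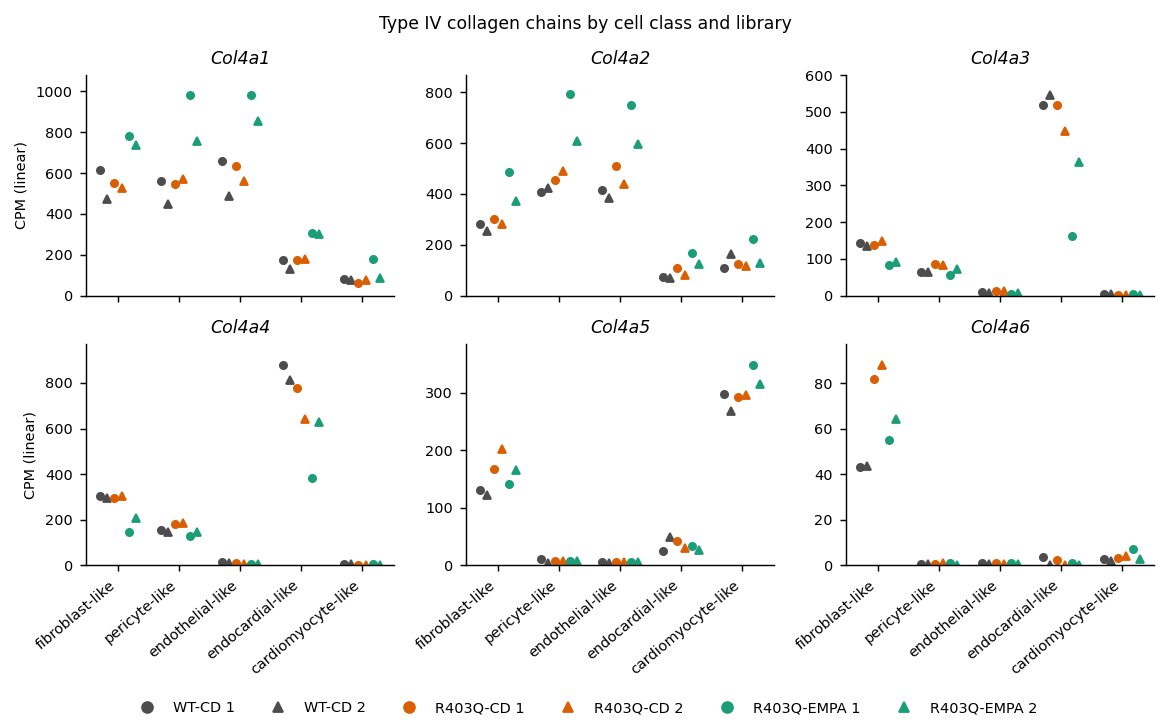
Levels in CPM (linear axes from 0) of the 6 type IV chains are drawn by class, each point a library coloured by group. Both R403Q-EMPA points of Col4a1 and Col4a2 lie above the R403Q-CD points in all 5 classes, and those of Col4a3 lie below them in all but the cardiomyocyte-like class.

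By structural type, the fibrillar collagens of fibroblast-like nuclei summed to 2710, 1793, 2025, 1864, 3826 and 2440 CPM, a ratio of 1.61 between R403Q-EMPA and R403Q-CD and 1.39 between R403Q-EMPA and WT-CD (exact permutation tests, p = 0.3333 and 0.667). WT-CD 1 lay above R403Q-EMPA 2. The multiplexins summed to 584, 531, 527, 415, 753 and 750 CPM, with ratios of 1.60 and 1.35, and the fibril-associated collagens to 187, 135, 157, 161, 308 and 187 CPM, with ratios of 1.56 and 1.54 (p = 0.3333 for each, exact permutation tests). Beaded filament collagens had ratios of 0.984 and 1.01, and network-forming collagens 0.935 and 1.01. Of the 10 fibrillar members tested in these nuclei 9 were higher in R403Q-EMPA than in R403Q-CD, with a median log2 difference of 0.70 beside 0.0006 over all genes. The edgeR test called none of them (0.345% of all genes), with 7 higher at an unadjusted p under 0.05 (13.2% of all genes, in either direction). DESeq2 called 1, Col11a1 (0.999% of all genes). The 6 basement membrane members had a median of -0.43, 2 higher and 4 lower. The summed level of the 6 basement membrane collagens was 1777 ± 266 CPM in pericyte-like nuclei of R403Q-EMPA against 1140 ± 75.7 CPM in WT-CD, a ratio of 1.56 (SD, n = 2). The ratio was 1.62 in endothelial-like, 1.28 in cardiomyocyte-like, 1.17 in fibroblast-like and 0.759 in endocardial-like nuclei, where Col4a3 and Col4a4 make up much of the sum. Each exact permutation test gave p = 0.3333, the smallest it can give. The sum of all 44 collagens differed by a ratio of 1.37 in pericyte-like and 1.42 in endothelial-like nuclei and 0.812 in endocardial-like nuclei, with the same p, and by 1.20 in fibroblast-like and 1.23 in cardiomyocyte-like nuclei (p = 0.667 for each, exact permutation test).

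In all nuclei together, fewer cells of a type and less RNA per cell cannot be told apart. Fibroblast-like nuclei made up 38.76, 33.88, 31.51, 28.45, 20.92 and 29.15% of the nuclei, lowest in R403Q-EMPA 1. Against R403Q-CD 0 of 41 members were called (0.0736% of all genes), with 14 at an unadjusted p below 0.05 (13.6%) and 6 called by DESeq2 (1.91%). Against WT-CD 3 were called (4.58%), with 14 at that unadjusted p (21.4%) and 11 called by DESeq2 (5.76%). Col26a1 fell by 1.60 (SE 0.216, adjusted p = 0.0137), at 20.8, 18.0, 16.5, 14.6, 4.96 and 7.16 CPM, and Col25a1 (ENSMUSG00000058897) fell by 1.16 (SE 0.255, adjusted p = 0.0490), at 30.1, 28.7, 20.1, 24.7, 9.36 and 15.6 CPM. For both, R403Q-EMPA was the lowest pair. The source classes of these genes, fibroblast-like and pericyte-like, were also at their lowest count in R403Q-EMPA 1, with 1657 and 376 nuclei. Without R403Q-EMPA 1 the Col25a1 difference was -0.79 (adjusted p = 0.0885), and its call was lost without any other library but R403Q-EMPA 2 too (-1.19 to -1.14). The Col26a1 call held without R403Q-EMPA 1 (-1.31, adjusted p = 0.0289) and was lost without WT-CD 2 (-1.65). Col11a2 (ENSMUSG00000024330), a fibrillar chain of cartilage, rose by 2.03 (SE 0.326, adjusted p = 0.0223), at 0.823, 0.722, 1.24, 1.08, 2.49 and 3.49 CPM on 25 to 93 UMIs. Cardiomyocyte-like nuclei, which gave 54.1% of its UMIs, made up 11.82, 9.331, 12.8, 14.07, 19.46 and 24.92% of the nuclei, the most in R403Q-EMPA, and within them Col11a2 was at 1.53, 1.04, 1.79, 2.23, 2.61 and 5.41 CPM. Its call was lost without WT-CD 1, WT-CD 2 or R403Q-EMPA 2 (2.05, 1.99 and 1.72). Col26a1 had the smallest p against R403Q-CD, with a difference of -1.32 (SE 0.215, adjusted p = 0.0820). The median over the members was 0.15 against R403Q-CD and -0.13 against WT-CD, and -0.22 for R403Q-CD against WT-CD, beside 0.011, -0.002 and -0.008 over all genes.

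The genes that fold, modify, cross-link, degrade and bind collagen were taken from lists of 32, 15 and 9 genes. For R403Q-CD against WT-CD edgeR called none of them in any sum. At an unadjusted p below 0.05 there were 0 to 5 genes of a list, beside 3.07 to 6.6% of all genes. DESeq2 called 1 synthesis gene in all nuclei (0.221% of all genes) and 1 breakdown gene in cardiomyocyte-like nuclei (0.416%). P4ha1, a catalytic subunit of the prolyl 4-hydroxylase that stabilises the collagen triple helix, was called higher in R403Q-EMPA in all 6 sums against both R403Q-CD and WT-CD. In pericyte-like nuclei it was at 199, 172, 222, 198, 617 and 666 CPM (log2 difference 1.58 against R403Q-CD, SE 0.144, adjusted p = 3.8e-05). In fibroblast-like nuclei it was at 218, 176, 220, 215, 459 and 509 CPM (1.11, SE 0.140, adjusted p = 0.0292), and in endothelial-like nuclei at 131, 108, 142, 122, 478 and 514 CPM (1.87, SE 0.143, adjusted p = 0.00106). The R403Q-EMPA pair was far above the other 4 in each, and without R403Q-EMPA 1 the call against WT-CD held in all 6 sums.

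In pericyte-like nuclei 3 of the 25 synthesis genes tested were called higher against R403Q-CD (P4ha1, P4ha2 and Plod1) and 4 against WT-CD, with Plod2 the fourth, beside 0.565 and 1.69% of all genes. DESeq2 called 2 and 4 of them. Plod1 and Plod2 are lysyl hydroxylases, which prepare collagen for cross-linking. In fibroblast-like nuclei, of 31 tested, 1 was higher and 1 lower against R403Q-CD, and 3 were higher (P4ha1, Plod1 and Lox) and 1 lower against WT-CD, beside 0.345 and 1.22% of all genes. DESeq2 called 6 and 7 of them. Lox, the lysyl oxidase that cross-links fibrils, was at 11, 7.58, 9.38, 9.92, 21.0 and 19.4 CPM (log2 difference 1.09 against WT-CD, SE 0.200, adjusted p = 0.0418). The gene that fell was Tll2, a relative of the procollagen C-proteinase, at 214, 217, 148, 106, 45.6 and 52.8 CPM. It fell by 1.41 against R403Q-CD (SE 0.185, adjusted p = 0.0292) and by 2.18 against WT-CD (SE 0.188, adjusted p = 0.00356). Tll2 was among the 10 leading genes of the cluster led by Kcnip1. That cluster held 48.9, 47.6, 49.45, 45.59, 24.44 and 44.68% of the fibroblast-like nuclei, and the part of its share in the result was not tested. In endothelial-like, endocardial-like and cardiomyocyte-like nuclei 1 synthesis gene, P4ha1, was called against R403Q-CD, beside 0.192, 0.765 and 0.23% of all genes, and DESeq2 called 5, 1 and 4. Against WT-CD 2 of 28 were called in endothelial-like (P4ha1, Plod2), 2 of 26 in endocardial-like (P4ha1, P4ha2) and 3 of 25 in cardiomyocyte-like nuclei (P4ha1, Plod1, P3h2), each higher, beside 0.726, 2.15 and 3.92% of all genes. DESeq2 called 5, 1 and 4 of the list there. Of the breakdown list, the inhibitor Timp3 was called higher in cardiomyocyte-like and lower in pericyte-like nuclei and Mmp15 higher in endothelial-like nuclei, all against WT-CD. Each was the only call of the list in its class, among 9, 10 and 10 genes tested, beside 3.92, 1.69 and 0.726% of all genes. Fap and Mrc2, 2 of 13 breakdown genes tested, and the collagen receptor Ddr2, 1 of 8, all genes of fibroblasts, were called lower in all nuclei against WT-CD. Of the 32 synthesis genes 5 were called there, P4ha1, P4ha2 and Plod1 higher and Colgalt2 and Tll2 lower, beside 4.58% of all genes. DESeq2 called 9 synthesis, 3 breakdown and 2 receptor genes there (5.76%). The fibroblast-like share of nuclei was lowest in R403Q-EMPA 1, at 20.92%, and was 29.15% in R403Q-EMPA 2 and 28.45% in R403Q-CD 2.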

How the data were processed

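UMI counts per gene and nucleus were deposited by the authors as filtered 10x matrices, which the submitters' processing notes credit to Cell Ranger 8.0.1 and GRCm39, and no normalized values were used. Barcodes with under 500 UMIs, under 300 genes or over 5% mitochondrial UMIs were left out, as were 3.931 to 6.716% of the rest as predicted doublets (Scrublet in scanpy 1.11.5). Nuclei were clustered without the collagen genes (2000 variable genes, 30 principal components, 15 neighbours, Leiden resolution 1) into 23 clusters. Clusters were named from 3 or more markers that were 2-fold enriched and present in 10% of nuclei. A cluster of 41 nuclei led by haemoglobin genes stayed unnamed, and 61 Schwann-like nuclei were too few for levels. Replicate libraries differed beyond sampling noise, with chi-square per degree of freedom of 8.808 to 57.1.

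Counts were summed per class and library and tested with edgeR 4.0.16 (quasi-likelihood, TMM, filterByExpr) over all 6 libraries and all genes, 3 residual degrees of freedom, Benjamini-Hochberg adjustment and a threshold of 0.05. The script was tested on simulated counts. DESeq2 1.42.0, other normalization and filters, 2 groups at a time, each library left out, doublets kept and a resolution of 0.5 were alternatives. The members, gene lists and naming rule were chosen with earlier results of these data known. Values per library are given for 15 common chains in their highest class, for every member called, for the member of smallest p where none was called, and for every member with a source class other than fibroblast-like. The SEs came from the quasi-likelihood fit, which takes in the spread between libraries, and the SDs are between libraries. Label text puts EMPA feeding at a length that the age of 12 weeks does not allow, so no duration is given.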

Additional observations from a re-analysis of the deposited data

Results flagged for a closer look

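Several collagens went opposite ways in different classes under the same comparison, with every library of one class higher and every library of the other lower. The difference between the classes was not tested. For R403Q-CD against WT-CD, the log2 difference of Col4a3 was 0.45 in pericyte-like and 0.73 in endothelial-like nuclei and -1.07 in cardiomyocyte-like nuclei. That of Col4a4 was 0.31 in pericyte-like and -1.07 in cardiomyocyte-like nuclei. For R403Q-EMPA against R403Q-CD, Col4a4 was at 0.85 in cardiomyocyte-like nuclei and at -0.81 in fibroblast-like, -0.46 in pericyte-like and -0.52 in endocardial-like nuclei. In cardiomyocyte-like nuclei Col4a3 and Col4a4 rested on 22 to 88 UMIs per library. For R403Q-EMPA against WT-CD, Col23a1 was at 0.51 in cardiomyocyte-like nuclei (7.55 to 11.9 CPM) and -0.79 in endocardial-like nuclei.

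The 61 Schwann-like nuclei, which entered no comparison, held 3 collagens, on more than 3 UMIs each, at over 2 times the mean of every class used for levels. Col16a1 was at 393.2 CPM on 73 UMIs, Col27a1 at 333.9 CPM on 62 UMIs and Col28a1, the collagen of peripheral nerve, at 75.4 CPM on 14 UMIs. Col5a2 (937.1 CPM), Col5a3 (511.6 CPM) and Col18a1 (280.1 CPM) were above every class by less than 2 times, and Col7a1 (16.2 CPM) by more, but on 3 UMIs.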

How the results depend on the processing

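No paired analysis was possible because the replicate numbers were given in listing order and pair no libraries. Source classes were the same for 44 of 44 members under each other clustering. Of 402 values of 29 named results, 303 kept their direction and side of the threshold, 65 lost the call, 33 gained one and 1 turned direction, Col11a1 in fibroblast-like nuclei against WT-CD (-0.13 without the Ltbp2-led cluster, an alternative chosen after seeing the data). The call of Col6a3 in pericyte-like nuclei against WT-CD held in every alternative run. The cause of the other changes was not tested.

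Without the filter on low counts, the members called were 6 for R403Q-CD against WT-CD, 25 for R403Q-EMPA against R403Q-CD and 25 against WT-CD. With DESeq2 they were 2, 13 and 18. With the 2 groups alone they were 10 and 7 for the R403Q-EMPA comparisons. Against R403Q-CD they were 5 with DESeq2's size factors and 1 without the mitochondrial filter. Leaving out each library gave 0 to 15 and 3 to 17. The shares of all genes called moved as well. In fibroblast-like nuclei they were 0.413, 3.97 and 4.39% without the filter for the 3 comparisons, and for the R403Q-EMPA comparisons 0.999 and 1.6% with DESeq2 and 1.74 and 0.334% with the 2 groups alone. Over the other 4 classes they were 0.104 to 1.28, 1.14 to 2.7 and 1.96 to 5.71% without the filter.

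For R403Q-CD against WT-CD, no filter gave 2 in fibroblast-like, 1 in endothelial-like, 1 in endocardial-like and 2 in cardiomyocyte-like nuclei, and DESeq2 gave 1 in fibroblast-like and 1 in cardiomyocyte-like nuclei. For R403Q-EMPA against R403Q-CD, no filter gave 19, 6, 6, 4 and 2 in fibroblast-like, pericyte-like, endothelial-like, endocardial-like and cardiomyocyte-like nuclei and 1 in all nuclei. DESeq2 gave 8, 1, 1 and 1 in fibroblast-like, endothelial-like, endocardial-like and cardiomyocyte-like nuclei and 6 in all nuclei. The 2 groups alone gave 3, 7, 1 and 1 in the first 4 classes, size factors gave 2 in fibroblast-like nuclei and no mitochondrial filter 1 in pericyte-like nuclei. Each library left out gave 0 to 10, 0 to 7, 0 to 3, 0 to 1 and 0 to 1 in the 5 classes and 0 to 4 in all nuclei. Beside these, the 2 groups alone called 1.74, 1.54, 1.2 and 2.03% of all genes in the first 4 classes, size factors 0.558% in fibroblast-like and no mitochondrial filter 0.415% in pericyte-like nuclei. Each library left out called 0 to 1.79, 0.106 to 1.83, 0.0274 to 1.39, 0.00832 to 2.12 and 0 to 1.32% in the 5 classes and 0 to 0.567% in all nuclei, and no filter 0.278% in all nuclei. Against WT-CD, no filter gave 16, 7, 6, 6 and 3 and 7 in all nuclei, DESeq2 gave 7 in fibroblast-like, 3 in endothelial-like and 11 in all nuclei, and the 2 groups alone 1 in pericyte-like, 1 in endocardial-like and 1 in all nuclei. No mitochondrial filter gave 7 in all nuclei, resolution 0.5 gave 1 in endothelial-like and doublets kept 1 in endocardial-like nuclei. Each library left out gave 0 to 11, 1 to 7, 0 to 4, 0 to 5 and 0 to 2, and 1 to 5 in all nuclei. Beside these, the 2 groups alone called 1.08, 1.02 and 1.5% of all genes in those sums, no mitochondrial filter 7.41%, no filter 3.73% in all nuclei, resolution 0.5 0.952% and doublets kept 2%. Each library left out called 0.115 to 3.5, 0.728 to 3.51, 0.0898 to 4.24, 0.335 to 3.51 and 0.869 to 5.54%, and 1.61 to 3.32% in all nuclei.

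Without the Ltbp2-led cluster, 1 and 2 members were called in fibroblast-like nuclei (0.446 and 1.01% of all genes), with medians of 0.27 and 0.11. Leaving out each library gave medians of 0.22 to 0.58 and 0.13 to 0.59. The summed fibroblast-like difference of R403Q-CD from WT-CD ranged from -701.1 to 519.9 CPM, at 55.4 CPM without R403Q-CD 2 and 519.9 CPM without WT-CD 1. Those of R403Q-EMPA ranged from 333.6 to 2693 CPM against R403Q-CD and from 243 to 2603 CPM against WT-CD. With 2 libraries per group, members with under 100 UMIs in a class give little power.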
